A study of Homo sapiens with 4 samples.

Results

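The aldehyde dehydrogenase (ALDH) genes described here are ALDH1A1, ALDH1A3, ALDH1B1, ALDH2, ALDH3A1, ALDH3A2, ALDH3B1, ALDH6A1, ALDH7A1 and ALDH9A1. They were taken by name, as 10 of the 16813 genes listed in at least 1 library, and the rule that names them uses no measured value, although earlier results of these data were known when they were chosen. The libraries are RNA-seq of PC9 cells, an EGFR-mutant line of human lung adenocarcinoma, and of PC9OR cells, a derivative of PC9 that is resistant to osimertinib. Osimertinib is an inhibitor of the EGFR kinase. Each line has 2 replicates, giving 4 libraries. The labels give the genotype as WT for both lines, the phenotype as control for PC9 and as osimertinib resistant for PC9OR, and both were grown in RPMI medium with fetal bovine serum. PC9OR is 1 resistant line, so a difference between the lines cannot be told apart from a difference particular to that derivative, and whether drug was present at harvest is not given in the sources used here. The labels call the replicates biological and do not say how they were separated, so p-values measure the spread between these libraries.

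Aldehyde dehydrogenases oxidise aldehydes to carboxylic acids with NAD+ or NADP+ as the acceptor, and a conserved cysteine in the active site attacks the aldehyde. The family divides by substrate and by place in the cell. The ALDH1A enzymes make retinoic acid from retinal in the cytosol, ALDH2 and ALDH1B1 act on acetaldehyde in mitochondria, and the ALDH3 enzymes act on fatty and aromatic aldehydes, including those made by lipid peroxidation. ALDH6A1, ALDH7A1 and ALDH9A1 serve valine breakdown, lysine breakdown and carnitine synthesis, respectively. ALDH activity is a common marker of stem-like cells in lung cancer, with ALDH1A1 and ALDH1A3 as its usual sources.

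Summed expected counts, an estimate of reads per gene that need not be whole, ran from 23201307 to 32203998 per library. At this depth 3 counts, taken as the smallest amount that can be shown, equal 0.0936 to 0.128 CPM (the count scaled to library size), covering counting error only. Replicates of PC9 varied more than those of PC9OR, and the biological coefficients of variation were 0.241 and 0.104. The difference between the PC9 replicates also followed transcript length, with a rank correlation across 11093 genes of -0.47, whereas that between the PC9OR replicates did not (0.00) and that between the lines did (-0.41). For genes named below, the result with an offset for length is also given where the call differs. Of 9 markers of lung adenocarcinoma epithelium, 6 reached 1 FPKM (fragment counts scaled to transcript length and library size) and the summed level of the 9 was 2576 to 2987 FPKM in PC9 and 5511 to 5720 in PC9OR. The 4 keratins were higher in both PC9OR libraries, CDH1 was at 69.5 and 49.5 FPKM in PC9 and 22.0 and 20.1 in PC9OR, and EPCAM was at 139 to 148 FPKM in the 4 libraries. The lung lineage markers NKX2-1 and NAPSA stayed at or below 0.17 FPKM and SFTPB was listed in 0 libraries. Markers of other cells were low: 4 fibroblast markers summed to at most 0.18 FPKM, 4 leukocyte markers to 5.55 to 6.97 FPKM in PC9 and 2.74 to 2.90 in PC9OR, nearly all of it CD68, with CD3E listed in 0 libraries, and 3 endothelial markers to 4.10 to 6.47 FPKM in PC9 and 0.86 to 0.88 in PC9OR, mostly CDH5 with VWF at or below 0.01. Their part in the results below was not tested.

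The coding sequence around the active-site cysteine is shown for the 5 genes that differed between the lines and for ALDH3A1, the closest relative of ALDH3A2 among the genes named. Each run is 27 bases of a spliced transcript annotated on GRCh37, read in the coding direction 5′ to 3′, with the cysteine codon in capitals.
ALDH1A3: caaggccagtgtTGCacggcagcctcc
ALDH2: cagggccagtgcTGCtgtgccggctcc
ALDH3A1: agtggccagaccTGCgtggcccctgac
ALDH3A2: tgtggccaaaccTGCattgcacccgac
ALDH6A1: gctggtcagcgcTGCatggctctttca
ALDH9A1: caaggccaggttTGCtgtaatggcaca

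The cysteine was placed by a search for the active-site pattern of the family, which 9 of the 10 genes matched in full. ALDH7A1 matched only a looser form of it. The reading frame of ALDH3B1 is broken in the annotation, so every frame of its transcript was searched. The codon was TGC in 8 of the 10 genes and TGT in the others, ALDH1A1 and ALDH7A1. ALDH3A1 and ALDH3A2 shared 21 of the 27 bases, and the mitochondrial pair ALDH2 and ALDH1B1 shared 24. The windows lie at chr15:101440824-101440850 on the plus strand for ALDH1A3 (exon 9 of 13), at chr12:112230446-112230472 on the plus strand for ALDH2 (exon 9 of 13), at chr17:19644469-19644495 on the minus strand for ALDH3A1 (exon 6 of 11) and at chr17:19561086-19561112 on the plus strand for ALDH3A2 (exon 5 of 10). The ALDH6A1 window lies at chr14:74534162-74534188 on the minus strand (exon 8 of 12). That of ALDH9A1 crosses an exon boundary, with its cysteine codon at chr1:165638682-165638684 on the minus strand (exon 7 of 11). ALDH3A2 and ALDH3A1 are neighbours on chromosome 17, on opposite strands with 52223 bases between their ends.

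Of the 10 genes, 9 had counts enough to be tested, and 3 were higher in PC9OR (ALDH3A2, ALDH6A1 and ALDH9A1), 2 were lower (ALDH1A3 and ALDH2) and 4 did not pass the test. Over all 13148 genes tested, 15.6% were called higher and 20.8% lower by edgeR's quasi-likelihood test at a Benjamini-Hochberg adjusted p under 0.05, so the counts of ALDH genes are to be read against a background in which calls were common. Both PC9OR libraries lay above both PC9 libraries for 4 of the 9 tested ALDH genes, where 39.6% of all genes did so, and below them for 4, where 38.2% of all genes did so. The median log2 fold change (PC9OR over PC9) of the 9 was 0.15, beside 0.01 over all genes tested. Fold changes and adjusted p-values below are from that edgeR test over all 13148 genes, with SE for the standard error on the log2 scale, and means are ± SD with n = 2.

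Retinal oxidation was represented by ALDH1A3. ALDH1A3 (Entrez 220, GRCh37 chr15:101417919-101456831, plus strand) stood at 163 and 173 FPKM in PC9 replicates 1 and 2 and at 74.1 and 70.9 FPKM in PC9OR replicates 1 and 2. The lines did not overlap, and the replicates of each line lay close together. The mean fell from 168 ± 7.28 to 72.5 ± 2.31 FPKM, which edgeR's quasi-likelihood test gave as 2.27-fold lower in PC9OR (log2 fold change -1.18, SE 0.110, adjusted p = 0.0053). Among all genes of a library, ALDH1A3 ranked 256 and 294 by FPKM in PC9 and 807 and 837 in PC9OR. The log2 fold change ranged from -1.25 to -1.14 when each library was left out in turn. Bulk RNA cannot tell a lower level in every cell from fewer cells that express the gene. In the annotation, 43.7% of the 50-base words of the ALDH1A3 transcript also occur in a transcript of another gene on either strand, mainly its antisense gene ALDH1A3-AS1. ALDH1A3-AS1 had 22.4 and 18.3 expected counts in PC9 and 49.0 and 36.7 in PC9OR, against 11688 to 25218 for ALDH1A3, and whether strand was used in counting is not given in the sources used here.

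ALDH1A1 (Entrez 216, chr9:75515587-75695358, minus strand) was at or near the smallest amount that can be shown in both lines. It had 0 and 5 expected counts in PC9 replicates 1 and 2 and 9 and 6 in PC9OR, or 0, 0.05, 0.09 and 0.06 FPKM. These values fell under the filter on low counts and ALDH1A1 was not tested. With no filter its fitted log2 fold change was 1.33 with an adjusted p of 0.516 in the same edgeR test.

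Of the mitochondrial acetaldehyde pair, ALDH2 was lower in PC9OR and ALDH1B1 was not called. ALDH2 (Entrez 217, chr12:112204691-112255336, plus strand) stood at 17.1 and 18.9 FPKM in PC9 and at 8.41 and 7.91 FPKM in PC9OR. Both PC9OR libraries were below both PC9 libraries, and the mean went from 18.0 ± 1.27 to 8.16 ± 0.354 FPKM. edgeR's quasi-likelihood test gave a 2.15-fold lower level (log2 fold change -1.11, SE 0.123, adjusted p = 0.0068), with -1.20 to -1.04 when each library was left out. In the annotation 10.6% of the words of the ALDH2 transcript also occur in transcripts of other genes. That transcript has 9561 bases, against deposited lengths of 2049 to 2060, so the share may not hold for the sequence counted here. ALDH1B1 (Entrez 219, chr9:38392699-38398658, plus strand) stood at 10.3 and 10.5 FPKM in PC9 and at 13.7 and 12.6 FPKM in PC9OR. The lines did not overlap, but the difference missed the threshold (log2 fold change 0.37, SE 0.112, adjusted p = 0.0535 by edgeR's quasi-likelihood test). It passed with the offset for length (0.37, adjusted p = 0.0412, same edgeR test), so its call depends on that correction. The log2 fold change without the offset ranged from 0.33 to 0.43 when each library was left out. ALDH2 therefore lay above ALDH1B1 in both PC9 libraries and below it in both PC9OR libraries, on the FPKM scale.

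The fatty aldehyde enzyme ALDH3A2, which also oxidises the hexadecenal released from sphingosine 1-phosphate in the endoplasmic reticulum, was higher in PC9OR. ALDH3A2 (Entrez 224, chr17:19551449-19589073, plus strand) stood at 65.9 and 71.0 FPKM in PC9 and at 113 and 118 FPKM in PC9OR. The lines were well apart, with means of 68.4 ± 3.58 and 116 ± 3.54 FPKM. edgeR's quasi-likelihood test gave a 1.73-fold higher level (log2 fold change 0.79, SE 0.114, adjusted p = 0.0106), and 0.72 to 0.84 when each library was left out. Without PC9OR replicate 1 the adjusted p was 0.0707, and without PC9OR replicate 2 it was 0.0990, so this call needs both PC9OR libraries.

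ALDH3A1, a cytosolic enzyme of aromatic and medium-chain aldehydes, is the neighbour of ALDH3A2 on chromosome 17 and was not called. ALDH3A1 (Entrez 218, chr17:19641297-19652256, minus strand) stood at 69.1 and 74.3 FPKM in PC9 and at 59.6 and 62.9 FPKM in PC9OR. Both PC9OR libraries were below both PC9 libraries, and the difference did not pass the test (log2 fold change -0.19, SE 0.112, adjusted p = 0.223, edgeR's quasi-likelihood test). An interval of 2 SE either side ran from -0.42 to 0.03. ALDH3A1 has the shortest transcript of the 9 tested genes, at 1694 bases, and with the offset for length it was called lower (log2 fold change -0.47, adjusted p = 0.0163), so its call depends on that correction. Its log2 fold change without the offset ranged from -0.27 to -0.13 when each library was left out. ALDH3B1 (Entrez 221, chr11:67776048-67796749, plus strand), a membrane-bound enzyme of lipid aldehydes, stood at 3.83 and 3.80 FPKM in PC9 and at 4.63 and 3.72 FPKM in PC9OR. Its ranges overlapped and it was not called (log2 fold change 0.15, SE 0.173, adjusted p = 0.506 by the same edgeR test).

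Of the genes tied to amino acid breakdown, ALDH6A1 was higher in PC9OR and ALDH7A1 was not called. ALDH6A1 (Entrez 4329, chr14:74523550-74551195, minus strand), the mitochondrial methylmalonate semialdehyde dehydrogenase of valine and thymine breakdown, stood at 6.83 and 5.30 FPKM in PC9 and at 9.66 and 9.56 FPKM in PC9OR. The PC9OR libraries agreed closely and lay above both PC9 libraries, which were further apart (6.07 ± 1.08 against 9.61 ± 0.0707 FPKM). edgeR's quasi-likelihood test gave a 1.62-fold higher level (log2 fold change 0.70, SE 0.149, adjusted p = 0.0236), with 0.52 to 0.87 when each library was left out and an adjusted p of 0.117 or 0.126 without PC9OR replicate 1 or 2. The annotation has 15.0% of the ALDH6A1 words also in other genes, mainly BBOF1. ALDH7A1 (Entrez 501, chr5:125866892-125931054, minus strand), which oxidises the semialdehyde formed in lysine breakdown, stood at 5.46 and 3.80 FPKM in PC9 and at 3.05 and 3.71 FPKM in PC9OR. The PC9 replicates differed from each other by more than PC9 replicate 2 differed from either PC9OR library, and the gene was not called (log2 fold change -0.41, SE 0.214, adjusted p = 0.181 by edgeR's quasi-likelihood test). Its log2 fold change ranged from -0.65 to -0.16 when each library was left out. ALDH7A1 shares 7.61% of its words with other genes, mainly the pseudogene ALDH7A1P1.

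ALDH9A1 (Entrez 223, chr1:165631453-165667799, minus strand), the cytosolic trimethylaminobutyraldehyde dehydrogenase of carnitine synthesis, stood at 21.2 and 25.9 FPKM in PC9 and at 32.5 and 34.3 FPKM in PC9OR. The lines did not overlap, with means of 23.6 ± 3.37 and 33.4 ± 1.22 FPKM. It was called 1.45-fold higher (log2 fold change 0.53, SE 0.147, adjusted p = 0.0435, edgeR's quasi-likelihood test), the call nearest to the threshold, with 0.37 to 0.69 when each library was left out. The adjusted p was 0.195 without PC9OR replicate 1 and 0.289 without PC9OR replicate 2.

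**Figure D1:**
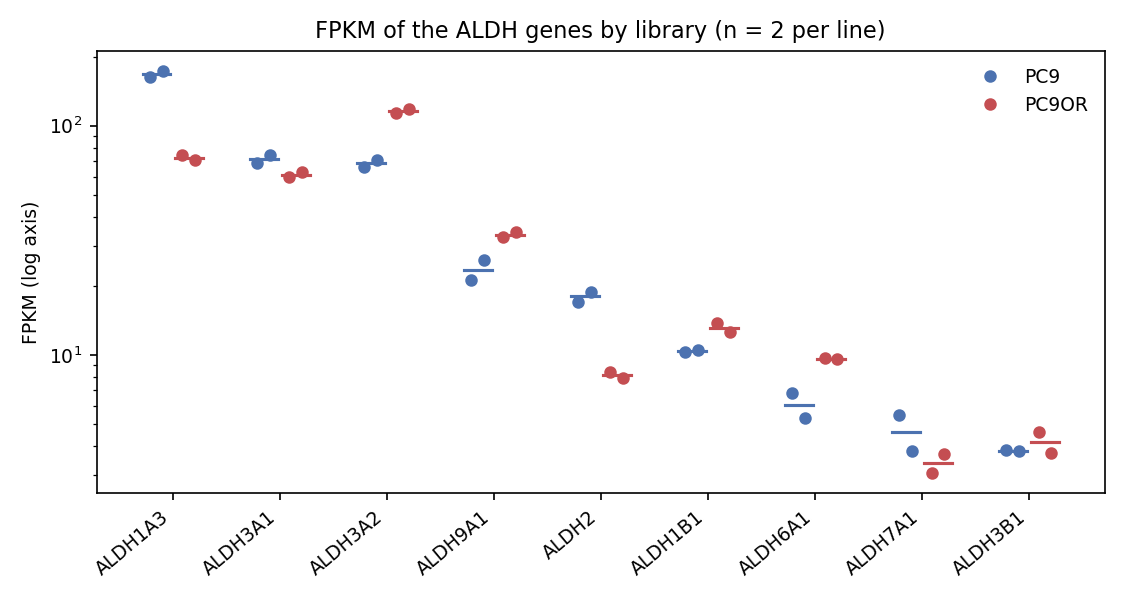
FPKM on a log axis of the 9 tested genes in each of the 4 libraries, with a point for each replicate of PC9 (blue) and PC9OR (red) and a bar at the mean of each line (ALDH1A1, near 0, is not drawn). ALDH1A3 and ALDH2 lie lower in PC9OR, ALDH3A2, ALDH6A1 and ALDH9A1 lie higher, and the ALDH3B1 points overlap.

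The summed level of the ALDH genes differed less between the lines than the shares of its leading genes. The sum of the 10 genes was 363 and 387 FPKM in PC9 and 319 and 324 FPKM in PC9OR. Both PC9OR sums were below both PC9 sums, and with 2 libraries against 2 an exact two-sided permutation test cannot give a p below 0.333. ALDH1A3 held 45.0% and 44.8% of the sum in PC9 and 23.2% and 21.9% in PC9OR, whereas ALDH3A2 held 18.2% and 18.3% in PC9 and 35.5% and 36.5% in PC9OR. ALDH3A1 held nearly the same share in both lines, 19.1% ± 0.115 in PC9 and 19.0% ± 0.533 in PC9OR (n = 2 each). The share of ALDH9A1 went from 6.27% ± 0.612 to 10.4% ± 0.272 and that of ALDH2 from 4.79% ± 0.121 to 2.54% ± 0.137. Shares of 1 sum depend on each other, so a fall in ALDH1A3 raises the share of every other gene.

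By FPKM the order in PC9 was ALDH1A3 first, then ALDH3A1 and ALDH3A2, whose ranges overlapped, then ALDH9A1, ALDH2 and ALDH1B1. ALDH6A1, ALDH7A1 and ALDH3B1 followed, with overlap among neighbours, and ALDH1A1 was last. In PC9OR the order was ALDH3A2, ALDH1A3, ALDH3A1, ALDH9A1, ALDH1B1, ALDH6A1, ALDH2, ALDH3B1, ALDH7A1 and ALDH1A1, and of these neighbours ALDH3B1 and ALDH7A1 were the closest, at 4.63 and 3.72 FPKM against 3.05 and 3.71 FPKM. The ratio of ALDH1A3 to ALDH3A2, whose transcripts are of like length (3600 and 3711 bases), was 2.48 and 2.44 in PC9 and 0.655 and 0.600 in PC9OR. The ratio of ALDH3A1 to ALDH3A2 was 1.05 in both PC9 libraries and 0.526 and 0.532 in PC9OR. The leading gene of the family was thus ALDH1A3 in both PC9 libraries and ALDH3A2 in both PC9OR libraries.

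**Figure D2:**
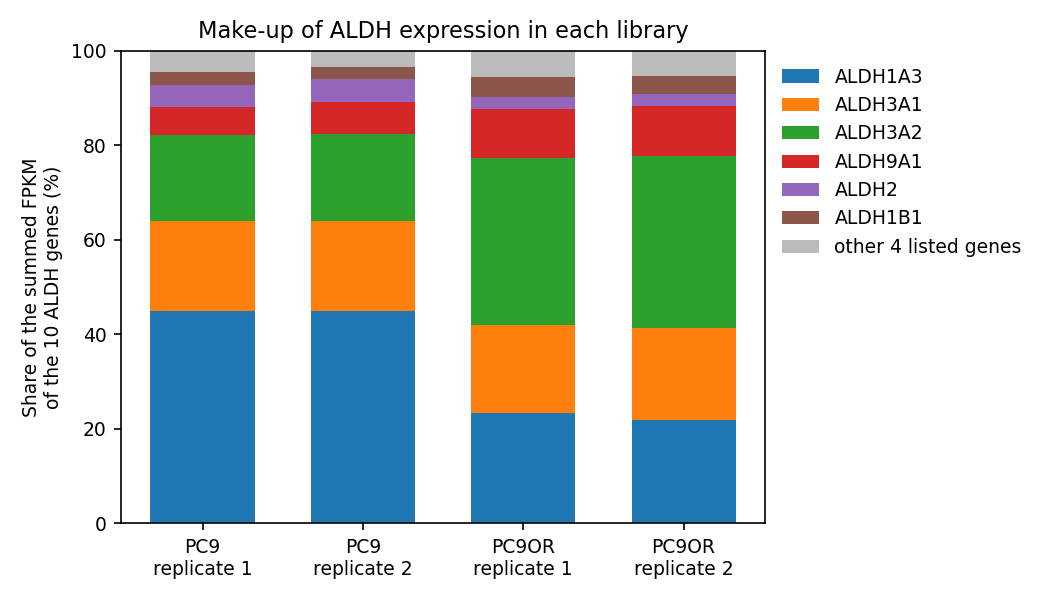
Share in percent of the summed FPKM of the ALDH genes that each gene held in each of the 4 libraries, with ALDH6A1, ALDH7A1, ALDH3B1 and ALDH1A1 drawn together in grey. The ALDH1A3 share falls from 45.0% and 44.8% in PC9 to 23.2% and 21.9% in PC9OR, and the ALDH3A2 share rises from 18.2% and 18.3% to 35.5% and 36.5%.

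With the offset for transcript length, 4 of the 9 tested genes were called higher and 3 lower, where 16.9% and 21.2% of all genes were called. The 5 calls made without the offset kept their direction and stayed past the threshold, with log2 fold changes of -1.11 for ALDH1A3, -1.29 for ALDH2, 0.88 for ALDH3A2, 0.89 for ALDH6A1 and 0.44 for ALDH9A1. ALDH1B1 was added among the higher genes and ALDH3A1 among the lower ones. ALDH3B1 and ALDH7A1 were not called either way, at 0.11 and -0.19 with the offset.

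**Figure D3:**
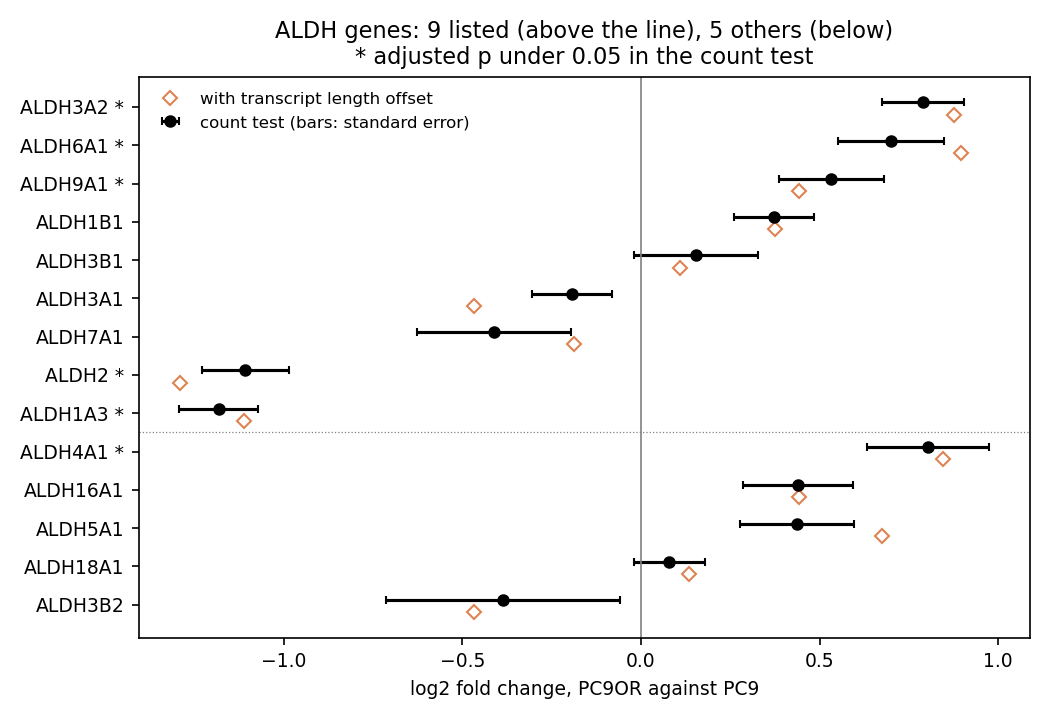
Log2 fold change of PC9OR over PC9 for the 9 tested genes and, below the dotted line, 5 other ALDH genes, as black points with bars of 1 SE and asterisks for adjusted p under 0.05, and as open diamonds with the offset for transcript length. Points to the right of 0 are higher in PC9OR, and ALDH3A1 moves from -0.19 to -0.47 with the offset and ALDH6A1 from 0.70 to 0.89. The tested gene ALDH1L1, called higher at a fitted log2 fold change of 5.00, is not drawn.

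**Figure D4:**
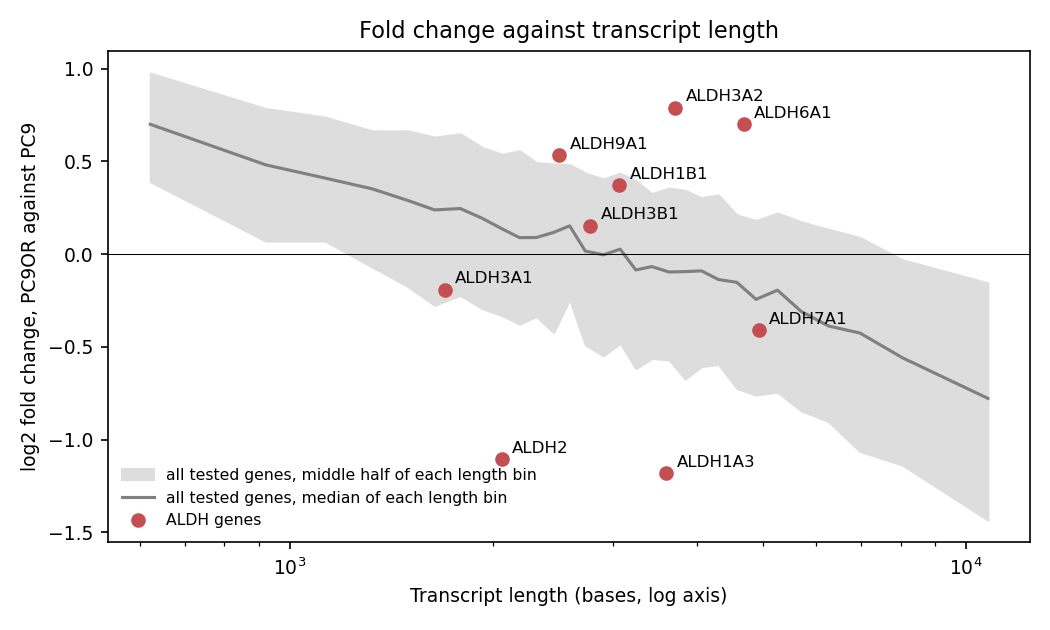
Median (line) and interquartile range (band) of the log2 fold change of PC9OR over PC9 over all tested genes in classes of transcript length, against length in bases on a log axis, with the tested ALDH genes as labelled points. The class medians fall from 0.70 at a median length of 622 bases to -0.78 at 10763 bases, and ALDH1A3, ALDH2, ALDH3A2, ALDH6A1 and ALDH9A1 lie outside the band at their lengths.

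The other ALDH genes of the human genome were read in the same way, as 9 genes of which 6 could be tested. In PC9OR, 2 were higher, 0 were lower and 4 were not called, with a median log2 fold change of 0.44, beside 15.6% higher and 20.8% lower over all genes. With the offset for length 3 were higher, beside 16.9% over all genes. At an unadjusted p under 0.05 edgeR also had 0 of them lower, DESeq2's Wald test had 0 and the MA-plot-based model had 1 (ALDH3B2). ALDH4A1, the mitochondrial enzyme of proline breakdown, stood at 1.70 and 1.87 FPKM in PC9 and at 3.12 and 3.04 FPKM in PC9OR (log2 fold change 0.80, SE 0.172, adjusted p = 0.0238 by edgeR's quasi-likelihood test). ALDH1L1, a cytosolic formyltetrahydrofolate dehydrogenase, had 3 and 0 counts in PC9 and 56 and 73 in PC9OR. Scaled by library size that is a ratio of 35.1 with a 95% exact counting interval from 11.8 to 173, which covers counting error only, and edgeR's quasi-likelihood test gave an adjusted p of 0.0184. ALDH1L1 passed the filter on low counts through PC9OR alone, so its call is no support for a direction of the list, and with at least 10 counts required in every library 5 of these genes were tested and 1 was higher. ALDH5A1, ALDH16A1, ALDH18A1 and ALDH3B2 were not called, at log2 fold changes of 0.44, 0.44, 0.08 and -0.39, and ALDH5A1, the succinic semialdehyde dehydrogenase, was called higher with the offset (0.68, adjusted p = 0.0128 by the edgeR test). ALDH18A1, which makes a precursor of proline, stood at 27.3 and 27.6 FPKM in PC9 and at 28.8 and 27.9 FPKM in PC9OR, the closest match between the lines among these genes. ALDH1A2, ALDH1L2 and ALDH8A1 had at most 7 counts in any library and were not tested.

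The genes around each ALDH reaction were grouped in 5 lists, whose counts are to be read beside the 15.6% of all tested genes called higher and the 20.8% called lower (16.9% and 21.2% with the offset for length). The retinoid list holds carriers, retinal-forming and retinal-reducing enzymes, the retinoic acid receptors and known responders, and sets ALDH1A3 in its pathway. Of its 19 genes 15 were tested, 5 were lower in PC9OR, 1 was higher and 9 were not called, with a median log2 fold change of -0.38, and with the offset for length 7 were lower and 0 higher (2 higher at an unadjusted p under 0.05, and 2 by DESeq2's Wald test without the offset).

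Among the receptors and responders, RARB, a retinoic acid receptor that is itself induced by retinoic acid, stood at 0.68 and 0.86 FPKM in PC9 and at 0.17 and 0.16 in PC9OR (log2 fold change -2.26, SE 0.358, adjusted p = 0.0122, edgeR's quasi-likelihood test). The retinoic acid responder RARRES1 stood at 1.11 and 0.95 FPKM in PC9 and at 0.18 and 0.11 in PC9OR (-2.86, SE 0.452, adjusted p = 0.0122 by the same edgeR test). PLAAT4, another responder, was the list's higher gene, at 0.43 and 0.27 FPKM in PC9 and 1.29 and 1.79 in PC9OR (2.16, SE 0.501, adjusted p = 0.0287 by the edgeR test), and its call was lost with the offset for length (1.51, adjusted p = 0.0879). PLAAT4 had 9 and 7 counts in PC9 and 37 and 53 in PC9OR, so it passed the filter through PC9OR alone. RARRES1 had 51.65 and 55.37 expected counts in PC9 and 11 and 7 in PC9OR, so it passed through PC9. Neither call is support for a direction of the list. With at least 10 counts in every library 13 genes of the list were tested, with 4 lower and 0 higher. PLAAT4 and RARRES1 were no longer among those tested. RARG and TGM2 were lower from higher levels. RARG, the gamma receptor, chosen after its values were seen, stood at 24.8 and 19.9 FPKM in PC9 and 5.42 and 4.91 in PC9OR (-2.06, SE 0.148, adjusted p = 0.0040 by the edgeR test). TGM2, a transglutaminase that retinoic acid induces, stood at 34.4 and 18.2 FPKM in PC9 and 4.59 and 4.52 in PC9OR (-2.12, SE 0.368, adjusted p = 0.0148 by the edgeR test), although its deposited length varied by 52.4% across libraries. CYP26A1, the retinoic acid hydroxylase, also named after its values were seen, had 0 and 6 counts in PC9 and 3 and 6 in PC9OR and was not tested.

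The alcohol dehydrogenases and carbonyl reductases interconvert alcohols and aldehydes, upstream of or beside the ALDH step. Of 19 genes 12 were tested, 5 were higher, 2 were lower (AKR1B1 and AKR1A1, named after their values were seen) and 5 were not called, with a median of 0.25. With the offset for length 5 were higher and 4 lower and the median was -0.17, so the sign of the list's median depends on that correction. AKR1B10, which reduces retinal and lipid aldehydes, stood at 194 and 230 FPKM in PC9 and at 352 and 407 FPKM in PC9OR (log2 fold change 0.86, SE 0.153, adjusted p = 0.0154 by edgeR's quasi-likelihood test). ADH5, the glutathione-dependent formaldehyde dehydrogenase, stood at 33.1 and 42.8 FPKM in PC9 and at 62.9 and 66.1 in PC9OR (0.80, SE 0.163, adjusted p = 0.0216 by the edgeR test). AKR1C2 (0.70, SE 0.118, adjusted p = 0.0140 by edgeR's quasi-likelihood test) has close relatives in AKR1C1 and AKR1C3, which were not called. Their sequence similarity was not measured here, and the split of reads among them is uncertain. With the offset for length AKR1C1 and AKR1C3 were called lower (-0.77, adjusted p = 0.0047, and -0.48, adjusted p = 0.0177, by the edgeR test) and AKR1C2 stayed higher at 0.71. AKR7A2, a reductase of succinic semialdehyde, was higher by 0.51 (SE 0.117, adjusted p = 0.0282, same edgeR test).

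Branched-chain amino acid breakdown, which feeds ALDH6A1 through valine, had all 19 of its genes tested. Of the 19, 7 were higher, 2 were lower and 10 were not called, beside 15.6% higher and 20.8% lower over all genes. The median was 0.40. With the offset for length 7 were higher and 1 lower, and the median was 0.22. The 7 higher genes were not all the same with and without the offset. HIBCH, the hydrolase that acts shortly before ALDH6A1 on the valine branch, stood at 4.46 and 5.72 FPKM in PC9 and 9.31 and 10.7 in PC9OR (log2 fold change 1.01, SE 0.194, adjusted p = 0.0187 by edgeR's quasi-likelihood test). ECHS1, the hydratase one step earlier, stood at 53.8 and 69.7 FPKM in PC9 and 126 and 125 in PC9OR (1.04, SE 0.160, adjusted p = 0.0116 by the edgeR test). HIBADH and ACAD8 of the same list, named after their values were seen, were not called (0.22, adjusted p = 0.173, and -0.16, adjusted p = 0.587, by the edgeR test). The transaminases that start the pathway went opposite ways. The mitochondrial BCAT2 stood at 9.50 and 9.97 FPKM in PC9 and 20.9 and 19.2 in PC9OR (1.00, SE 0.118, adjusted p = 0.0075 by the edgeR test). The cytosolic BCAT1 stood at 13.3 and 15.4 FPKM in PC9 and 7.02 and 7.26 in PC9OR (-0.97, SE 0.129, adjusted p = 0.0092 by the edgeR test), and its call was lost with the offset for length (-0.32, adjusted p = 0.231).

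The list for lysine breakdown and carnitine synthesis, the pathways of ALDH7A1 and ALDH9A1, had 6 of 8 genes tested, of which 1 was higher, 1 was lower and 4 were not called (median -0.10, and 1 higher and 3 lower with the offset). AASS, which starts lysine breakdown by the saccharopine route, stood at 1.07 and 0.95 FPKM in PC9 and 0.08 and 0.15 in PC9OR (log2 fold change -3.10, SE 0.396, adjusted p = 0.0086 by edgeR's quasi-likelihood test). GCDH, which acts later in that pathway, was higher by 0.61 (SE 0.153, adjusted p = 0.0351 by the edgeR test), and its adjusted p was 0.0612 with the offset.

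For the sphingolipid and fatty aldehyde list, which holds sources of the ALDH3A2 substrates, 11 of 11 genes were tested, 1 was higher, 2 were lower and 8 were not called (median -0.08, and 2 higher and 1 lower with the offset). HACL1, a peroxisomal lyase that releases fatty aldehydes, stood at 7.65 and 9.75 FPKM in PC9 and 13.1 and 14.0 in PC9OR (log2 fold change 0.66, SE 0.167, adjusted p = 0.0355, edgeR's quasi-likelihood test). FAR1, which reduces fatty acyl-CoA to fatty alcohol, stood at 21.7 and 24.5 FPKM in PC9 and 14.4 and 14.7 in PC9OR (-0.63, SE 0.121, adjusted p = 0.0188 by the edgeR test), with an adjusted p of 0.0806 under the offset. CERS2, a ceramide synthase, was lower by a log2 fold change of -0.50 (SE 0.101, adjusted p = 0.0212, edgeR's quasi-likelihood test). SGPL1, the lyase that makes hexadecenal from sphingosine 1-phosphate, named here after its values were seen, was not called (-0.26, adjusted p = 0.155, edgeR's quasi-likelihood test).

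Many of the calls in these lists need both PC9OR libraries, as those of ALDH3A2, ALDH6A1 and ALDH9A1 do. The retinoid list had 3 lower calls without PC9OR replicate 1 and 2 without PC9OR replicate 2, and RARG, TGM2 and AASS were called in both of these fits. The branched-chain list had 3 and 2 higher calls, and the sphingolipid list lost its 3 calls in both. The alcohol and carbonyl list had 1 higher call without PC9OR replicate 1 and lost all of its calls without PC9OR replicate 2, and PLAAT4 was not called in either fit. Of the other ALDH genes, ALDH1L1 was still called in both fits, and ALDH4A1 was not, at adjusted p-values of 0.160 and 0.156. Over all genes the higher calls went from 2056 to 525 and 527 in those fits, and the lower calls from 2734 to 1177 and 1191, so these changes came with fewer calls everywhere.

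**Figure D5:**
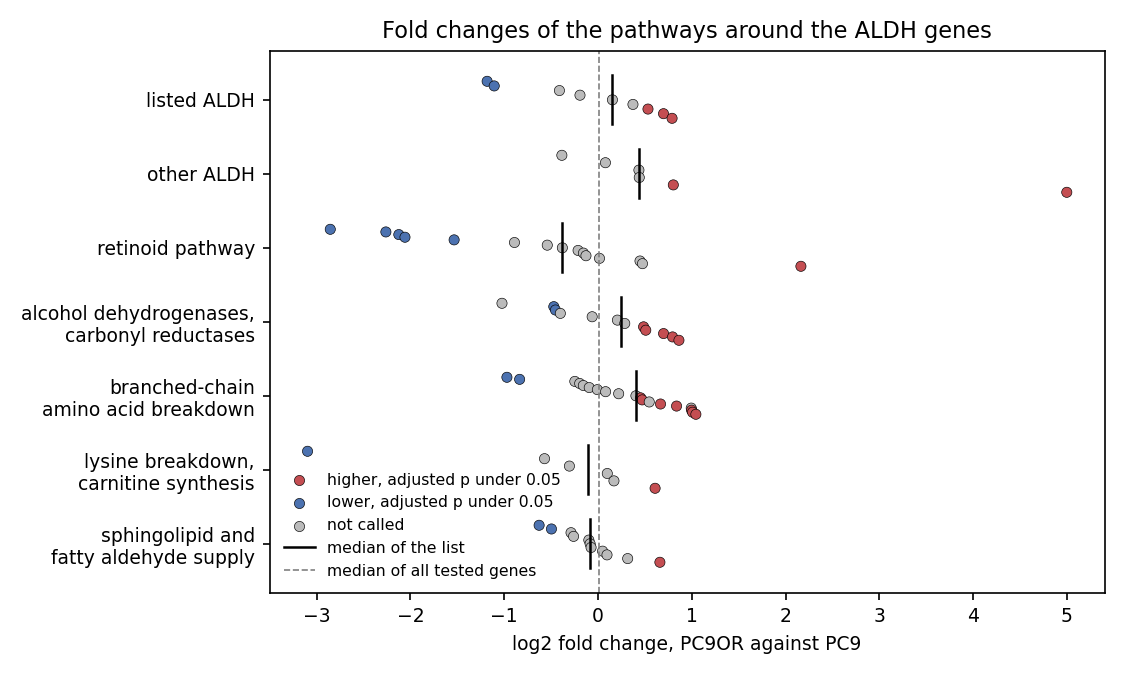
Log2 fold change of PC9OR over PC9 for each tested gene of the ALDH genes and of the gene lists, with red points for genes called higher and blue for genes called lower at an adjusted p under 0.05, grey for the rest, a bar at each list's median and a dashed line at the median of all tested genes. The retinoid list has 5 of 15 tested genes lower and the branched-chain list 7 of 19 higher, and the far point ALDH1L1 is a fitted value that rests on few counts in PC9.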

How the data were processed

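RNA of 2 PC9 and 2 PC9OR replicates was extracted with TRIzol and sequenced on an Illumina HiSeq after TruSeq Stranded library preparation. Per gene and library, the authors deposited an expected count, which is not normalized, an FPKM value, which is scaled for length and depth, and the transcript length used. The paper names SOAP for read filtering, and the submitters' processing notes name Bowtie2 2.2.5, RSEM 1.2.12 and GRCh37. A gene missing from a library was taken as 0, and 99.7% of genes received a RefSeq symbol through their Entrez identifier. Lengths estimated from isoform use can move an FPKM value, and those of the 10 genes varied by at most 1.72% between libraries.

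Counts were rounded and entered edgeR 4.0.16 under R 4.3.3 (TMM, filterByExpr, estimateDisp, glmQLFit, glmQLFTest), which left 13148 genes, and were called at a Benjamini-Hochberg adjusted p under 0.05. SE is the log2 fold change divided by the square root of the F statistic. Offsets for length were smooth fits per library (mgcv 1.9.3). Other alternatives used DESeq2 1.42.0, limma 3.58.1 on log2(FPKM + 1) and log2(FPKM + 0.1), an MA-plot-based model of random sampling with replicates pooled, another scaling or filter, and each library left out. Sequences came from transcripts of the GENCODE annotation lifted to GRCh37. The ALDH genes, the 9 other family members and the 5 lists were chosen with earlier results of these data known. From each list up to 4 called genes with the largest change are named, and others are said to be chosen after their values were seen. The results for 1 gene of the retinoid list are not reported here. Where a list's median is given, it is over its tested genes.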

Additional observations from a re-analysis of the deposited data

How the results depend on the processing

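For the 9 tested genes, 153 fold changes were recomputed over 17 settings, of which 0 reversed, 133 kept their side of the threshold, 14 newly passed it and 6 no longer did. Those 6 were ALDH3A2, ALDH6A1 and ALDH9A1 without PC9OR replicate 1 or 2, where the remaining PC9OR library is assumed to vary like the PC9 libraries. ALDH1A3 and ALDH2 stayed lower in each, with adjusted p-values up to 0.0267 and 0.0340. For 24 other named genes, 405 results gave 361 on the same side, 11 newly past and 33 no longer past, with 0 reversed. The 24 were the tested other ALDH genes, the called genes with the largest change in each list, and RARG. ACAD8, HIBADH, SGPL1, AKR1A1, AKR1B1, AKR1C1 and AKR1C3 were left out. With each library left out, log2 fold changes ran from -0.40 to 0.12 for ACAD8 and from -0.28 to 0.17 for AKR1C3. SGPL1 also changed sign with the offset for length (0.04), and HIBADH with offsets for length and GC content (-0.05). AKR1A1, AKR1B1 and AKR1C1 stayed below 0 in these fits.

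The 3 ALDH genes higher and 2 lower became 5 and 4 under the MA-plot-based model, with 5594 and 5459 of all genes in place of 2056 and 2734, and 0 and 2 at more than 2-fold and an adjusted p under 0.05, with 806 and 1523 of all genes. At more than 2-fold and an adjusted p under 0.001 the counts were 0 for the ALDH genes and for all genes, and the smallest adjusted p of edgeR's test was 0.00155, beside 6653 genes at an unadjusted p under 0.05. Leaving out each library gave 0 to 4 higher and 2 to 3 lower ALDH genes (2 higher at an unadjusted p without either PC9OR replicate), and 525 to 3932 higher and 1177 to 3929 lower genes, of which 3932 and 3929 were without PC9 replicate 2. The labels give same-numbered replicates no link beyond the number, and whether they share a batch is not stated. The correlation of their deviations was 0.0553, and the replicate block gave 3 and 2 ALDH genes and 2593 and 2946 of all genes. The causes were not tested.

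Depth limits ALDH1A1, ALDH1A2, ALDH1L2 and ALDH8A1, which were not tested.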
